A study of Mus musculus with 6 samples.

Results

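The genes described here encode the collagens, the laminins, the integrins and 6 further proteins of the extracellular matrix and basement membrane: fibronectin (Fn1), fibrillin 2 (Fbn2), Sparc, the nidogens Nid1 and Nid2, and perlecan (Hspg2). They were taken by symbol from the array's annotation, as every probe set named as a collagen chain, a laminin chain, an integrin chain or one of those proteins. This gave 172 of the 45101 probe sets on the array, and 84 of its 18193 genes: 42 collagens, 10 laminins, 26 integrins and 6 other matrix genes. The choice went by name and set no threshold on measured values, but earlier results of these data were known when it was made. Fbn1, which was also sought, has no probe set under that symbol in the annotation used and was not analysed here. Itgb3bp, whose symbol begins like that of an integrin but which encodes a centromere protein, was left out together with the Itgb1bp genes.

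The study followed mouse embryonic stem (ES) cells on their way to paraxial mesoderm, the tissue on either side of the neural tube that forms the somites. The cells were of the E14 line, of 129P2/OlaHsd background, and carried a Venus fluorescent reporter of Msgn1, a transcription factor gene of the presomitic mesoderm. Both groups had been differentiated in DMEM with 15% fetal bovine serum, 0.5% DMSO, 10 ng/mL R-spondin3, which strengthens Wnt signalling, and 200 ng/mL Noggin, which blocks BMP ligands. Venus-positive cells were sorted for RNA after 3 or 4 days, and 3 samples labelled as biological replicates were hybridised from each day, 1 Affymetrix array per sample. There was thus 1 reporter line and 1 medium, without a group of unsorted or untreated cells, and the only comparison is day 4 against day 3. The labels do not say what separated the biological replicates, so the p-values measure the spread between these samples.

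Collagen chains assemble in threes into triple helices, either as fibrils in connective tissue or as the type IV network of basement membranes. Laminins are trimers of an alpha, a beta and a gamma chain that polymerise on cell surfaces, and nidogens and perlecan bind them to the type IV network. Integrins are pairs of an alpha and a beta chain that hold cells to these proteins and connect them to the actin cytoskeleton. In the embryo, fibronectin and the integrins that bind it are needed for somites to form, and laminin-rich basement membranes form around them.

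Of the 84 genes, 55 were bright enough to be tested, each through its probe set with the highest mean signal. The level required was a geometric mean of 13.5 over the 6 arrays (the mean of log2 signal, taken back to the linear scale), the 40th percentile of all probe sets, and signals are linear intensities in arbitrary units made by MAS5, the Affymetrix summary algorithm. Between the days 16 of the 55 genes changed, 10 of them higher at day 4 and 6 lower (limma, Benjamini-Hochberg adjusted p under 0.05 over all 12285 genes tested). The background was 22.2% of all genes tested, with 11.5% higher and 10.7% lower, against 29.1% of these 55. Leaving out 1 array moved both shares. Without day 3 replicate 1, 25.5% of these genes and 16.1% of all genes changed. The shares were 25.5% and 14.7% without day 3 replicate 2, and 27.3% and 12.9% without day 3 replicate 3. At day 4 they were 36.4% and 28.7% without replicate 1, 27.3% and 16.5% without replicate 2, and 27.3% and 17.9% without replicate 3. The median change of these 55 genes, day 4 minus day 3, was 0.11 on the log2 scale against -0.01 for all genes tested. All 16 changed genes had days that did not overlap, as did 5 others, which makes 21 of 55 where 41.4% of all genes tested had none. Of the 55, 7 both passed and differed by 2-fold or more, as did 4.04% of all genes tested. Because these are bulk RNA samples, fewer cells expressing a gene and less RNA per cell cannot be told apart.

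**Figure D1:**
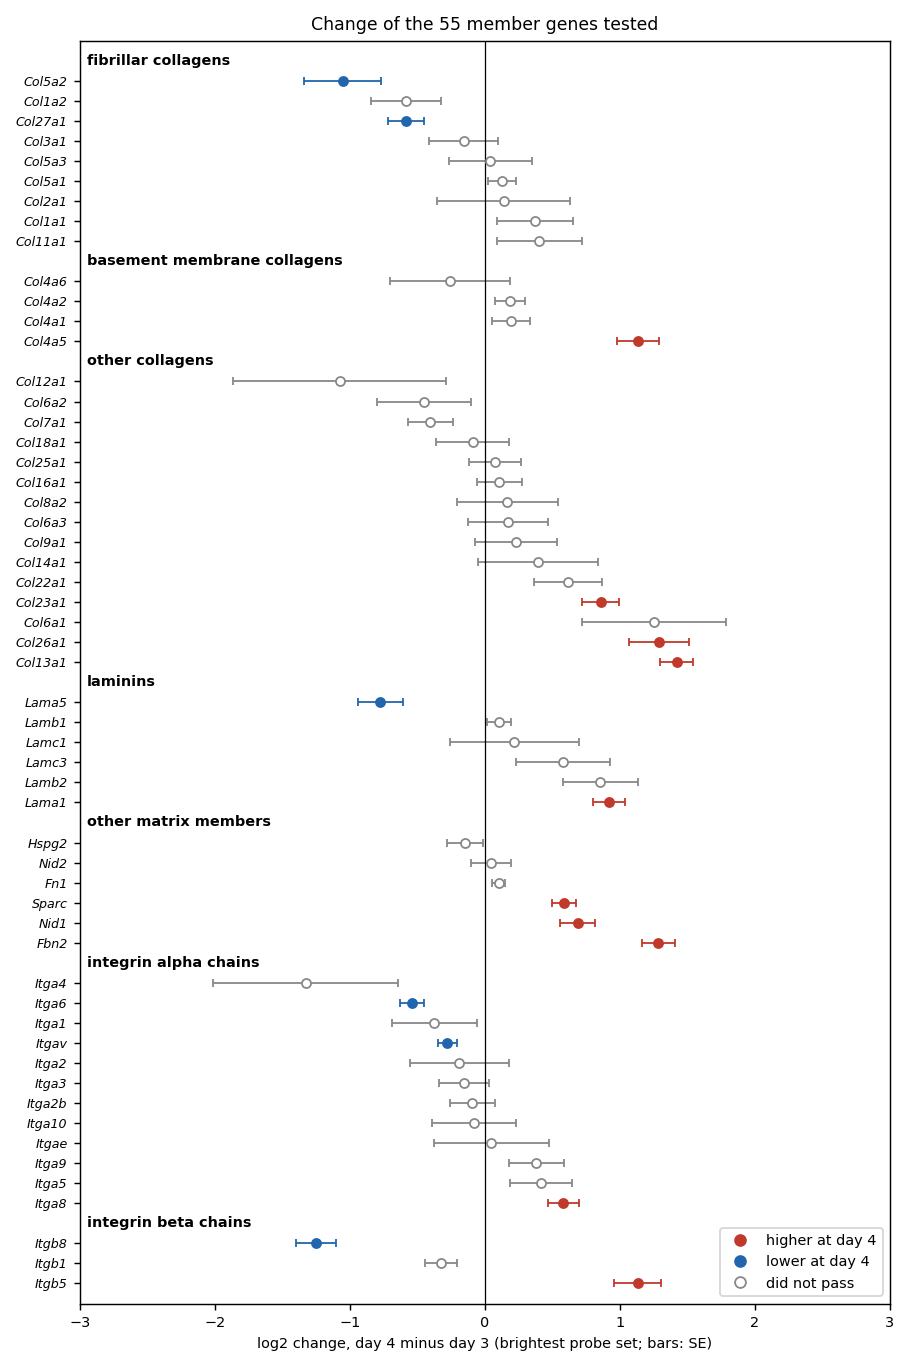
Log2 change from day 3 to day 4 of the 55 genes tested, by class, with the brightest probe set of each gene as the point and its standard error as the bar. Filled points passed an adjusted p of 0.05, 10 to the right (higher at day 4) and 6 to the left (lower), and open points did not pass. Col13a1 lies farthest right of the genes that passed and Itgb8 farthest left. For Col12a1, Col14a1, Col2a1 and Itga4 the mean of 1 day lay under the level, so their points are fitted values and not measured folds.

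The arrays were alike in level, with trimmed means between 160.4 and 162.1. Correlations of log2 signal ran from 0.941 to 0.946 within day 3, from 0.933 to 0.948 within day 4 and from 0.924 to 0.939 between the days. In the controls for RNA quality 1 array, day 4 replicate 1, differed from the rest. For Gapdh its 3′ probe set was 14.0 times as bright as its 5′ one (elsewhere 2.43 to 3.19 times), and for Actb 6.71 times (elsewhere 2.77 to 3.84). Of the 89 probe sets of these genes that were bright enough, 10 were more than 2-fold lower on that array than on both other day 4 arrays (11.2%), against 0 to 3 on each of the other 5 arrays. Over all 22276 probe sets tested, the same array had 3.00% such probe sets and the others 0.691% to 1.38%. The part of the 3′ to 5′ ratio in these values was not tested. Without that array 11 of the 55 genes were higher and 9 lower, with 28.7% of all genes tested changed.

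Among the collagens, 4 of 28 genes tested rose and 2 fell. Of 15 genes in the classes other than fibrillar and basement membrane collagens, 3 rose and the other 12 did not pass, with a median change of 0.17. Col13a1 encodes a collagen anchored in the plasma membrane by a transmembrane segment. Its signal was 156.8, 193.1 and 168.5 on the arrays of day 3 replicates 1, 2 and 3, and 512.5, 438.4 and 435.7 on those of day 4. Every day 4 value was more than double every day 3 value. The mean rose from 173 ± 18.6 to 462 ± 43.6 (SD, n = 3 each), a log2 change of 1.42 ± 0.12 (SE; limma adjusted p = 8.72e-05). Col23a1, another transmembrane collagen, stood at 72.9, 75.7 and 65.1 at day 3 and at 139, 121 and 127 at day 4, without overlap. Its brightest probe set changed by 0.86 ± 0.13 (adjusted p = 0.00217). Both of its other probe sets rose by more, by 1.94 ± 0.15 and 1.46 ± 0.20, from 43.2, 53.2 and 44.1 to 184, 160 and 194 in the first case (adjusted p = 0.000119). Col26a1, a secreted protein with collagen domains, was measured at 23.9, 40.1 and 37.9 at day 3 and at 89.1, 79.1 and 75.4 at day 4. Its days were clear of each other, with a change of 1.29 ± 0.23 (adjusted p = 0.00362), and day 3 replicate 1 was the lowest array.

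Col18a1 encodes a basement membrane collagen whose C-terminal fragment is endostatin, and it belongs by sequence outside the type IV group. It read 293, 230 and 214 at day 3 and 372, 163 and 197 at day 4, with the days overlapping and replicate 1 the highest of each day. The change was -0.09 ± 0.27 (adjusted p = 0.841), and without day 4 replicate 1 it was -0.44 (adjusted p = 0.0452).

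The type IV chains of basement membranes are coded in pairs of genes that lie head to head on opposite strands. Of the 4 genes tested 1 rose and the other 3 did not pass, with a median change of 0.19. Col4a5 gave 39.3, 46.5 and 49.2 at day 3 and 102, 96.1 and 95.8 at day 4. The arrays within each day lay close together, and the change was 1.13 ± 0.16 (adjusted p = 0.00109). Its second probe set, between 14.5 and 34.4 on all arrays, differed by -0.06 ± 0.36 (adjusted p = 0.934), so the rise was seen by 1 of its 2 probe sets. Col4a6, the neighbour of Col4a5, was dim, with 16.02, 34.6 and 21.5 at day 3 and 24.3, 27.7 and 10.3 at day 4 (-0.26 ± 0.45, adjusted p = 0.721). It is named because of its position, after its values were seen. Col4a1 and Col4a2, which make the common type IV trimer, did not pass. Col4a1 stood at 1310, 1456 and 1499 at day 3 and at 2081, 1445 and 1420 at day 4, where replicate 1 alone was above day 3 (0.19 ± 0.14, adjusted p = 0.355). Col4a2 had 248, 226 and 244 at day 3 and 293, 246 and 278 at day 4, overlapping only in part (0.18 ± 0.11, adjusted p = 0.265).

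The promoter windows of these 4 chains are shown because they set the layout of the gene pairs beside their values. Each runs from 250 bases before to 50 bases after the start site in RefSeq (GRCm38.p6), 5′ to 3′ on the gene's own strand, with matches to the GC box GGGCGG on either strand in capitals.
Col4a1, chr8:11312777-11313076, minus strand: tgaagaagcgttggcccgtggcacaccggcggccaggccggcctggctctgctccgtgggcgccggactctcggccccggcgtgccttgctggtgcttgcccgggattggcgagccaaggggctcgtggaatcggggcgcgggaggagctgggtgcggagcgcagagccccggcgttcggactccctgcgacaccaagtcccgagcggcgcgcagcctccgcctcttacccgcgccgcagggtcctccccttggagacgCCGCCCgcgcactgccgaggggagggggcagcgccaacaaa
Col4a2, chr8:11312555-11312854, plus strand: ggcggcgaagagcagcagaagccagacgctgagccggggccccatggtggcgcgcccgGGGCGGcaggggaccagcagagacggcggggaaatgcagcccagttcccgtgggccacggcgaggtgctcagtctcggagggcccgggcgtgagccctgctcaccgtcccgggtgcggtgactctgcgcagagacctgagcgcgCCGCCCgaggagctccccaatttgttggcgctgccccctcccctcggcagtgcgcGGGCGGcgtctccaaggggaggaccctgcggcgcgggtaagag
Col4a5, chrX:141475169-141475468, plus strand: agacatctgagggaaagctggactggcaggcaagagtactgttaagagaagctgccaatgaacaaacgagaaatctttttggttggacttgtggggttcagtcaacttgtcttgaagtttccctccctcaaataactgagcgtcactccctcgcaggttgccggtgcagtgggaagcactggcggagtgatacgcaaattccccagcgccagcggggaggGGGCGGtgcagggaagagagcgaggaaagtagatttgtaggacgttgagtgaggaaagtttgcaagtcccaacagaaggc
Col4a6, chrX:141474027-141474326, minus strand: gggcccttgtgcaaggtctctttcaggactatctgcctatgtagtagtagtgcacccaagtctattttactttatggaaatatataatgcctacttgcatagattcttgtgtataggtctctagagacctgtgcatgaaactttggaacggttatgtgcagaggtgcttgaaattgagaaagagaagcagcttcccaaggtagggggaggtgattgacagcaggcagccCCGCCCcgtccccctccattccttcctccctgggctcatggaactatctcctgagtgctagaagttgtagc
The start sites of Col4a1 and Col4a2 lie 21 bases apart, and their windows share 78 bases on opposite strands. The windows of Col4a5 and Col4a6 do not overlap, as the annotated starts lie 1343 bases apart. The Col4a2 window held 3 GC boxes and each of the others 1. GC content was 74.0% for Col4a1 and 73.7% for Col4a2, against 52.7% for Col4a5 and 48.3% for Col4a6.

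Of the fibrillar collagens 9 were tested, of which 2 fell and the other 7 did not pass, with a median change of 0.04. Col27a1, which encodes a fibrillar collagen known from cartilage, had signals of 188, 181 and 173 at day 3 and 139, 105 and 120 at day 4. All day 4 arrays were below all day 3 arrays (-0.58 ± 0.13, adjusted p = 0.0128), while its second probe set differed by -0.10 ± 0.18 (adjusted p = 0.755). Col5a2, a type V chain that helps start collagen fibrils, was at 49.2, 49.9 and 70.8 at day 3 and at 18.4, 28.8 and 36.7 at day 4. Its days did not overlap, but the arrays of each day were widely spread (-1.05 ± 0.29, adjusted p = 0.027). That call was lost in 7 of the alternative settings, with adjusted p up to 0.117. Leaving out any 1 of the day 3 arrays or day 4 replicate 2 was enough, at adjusted p from 0.0517 to 0.117.

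Col1a1 and Col1a2 code for the chains of type I collagen, the main fibril of connective tissue. Col1a2 had 211, 160 and 171 at day 3 and 188, 105 and 86.3 at day 4, where replicate 1 alone reached into the range of day 3. The change was -0.58 ± 0.26 (adjusted p = 0.134), and without day 4 replicate 1 it was -0.91 (adjusted p = 0.0015). Col1a1 was dimmer on its probe set, with 24.5, 31.3 and 23.0 against 46.7, 31.0 and 26.4 (0.37 ± 0.28, adjusted p = 0.378). Type II collagen, the fibril of cartilage, was at the edge of the measurable range: Col2a1 ran from 6.56 to 19.4 on all arrays, with the days overlapping (adjusted p = 0.871). Col3a1, which makes the fibrils of soft tissues, lay between 29.5 and 49.3 on all arrays (-0.16 ± 0.26, adjusted p = 0.699). Col5a1, the partner chain of Col5a2, was bright on both days, at 674, 617 and 734 and then 816, 692 and 700 (0.12 ± 0.10, adjusted p = 0.424). The other probe sets of Col5a1 had the opposite sign without passing, at -0.27 ± 0.13 and -1.07 ± 0.61 (limma adjusted p = 0.188 and 0.258). Col11a1, a minor chain of cartilage fibrils, was at 24.4, 21.3 and 25.4 at day 3 and 45.8, 20.8 and 31.8 at day 4 (0.40 ± 0.32, adjusted p = 0.397). Its other probe set read 3.49, 13.5 and 16.5 and then 26.2, 24.2 and 37.0, without overlap. Its day 3 mean lay under the level, so that day 4 was at least 1.99-fold higher, and it did not pass (adjusted p = 0.082).

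**Figure D2:**
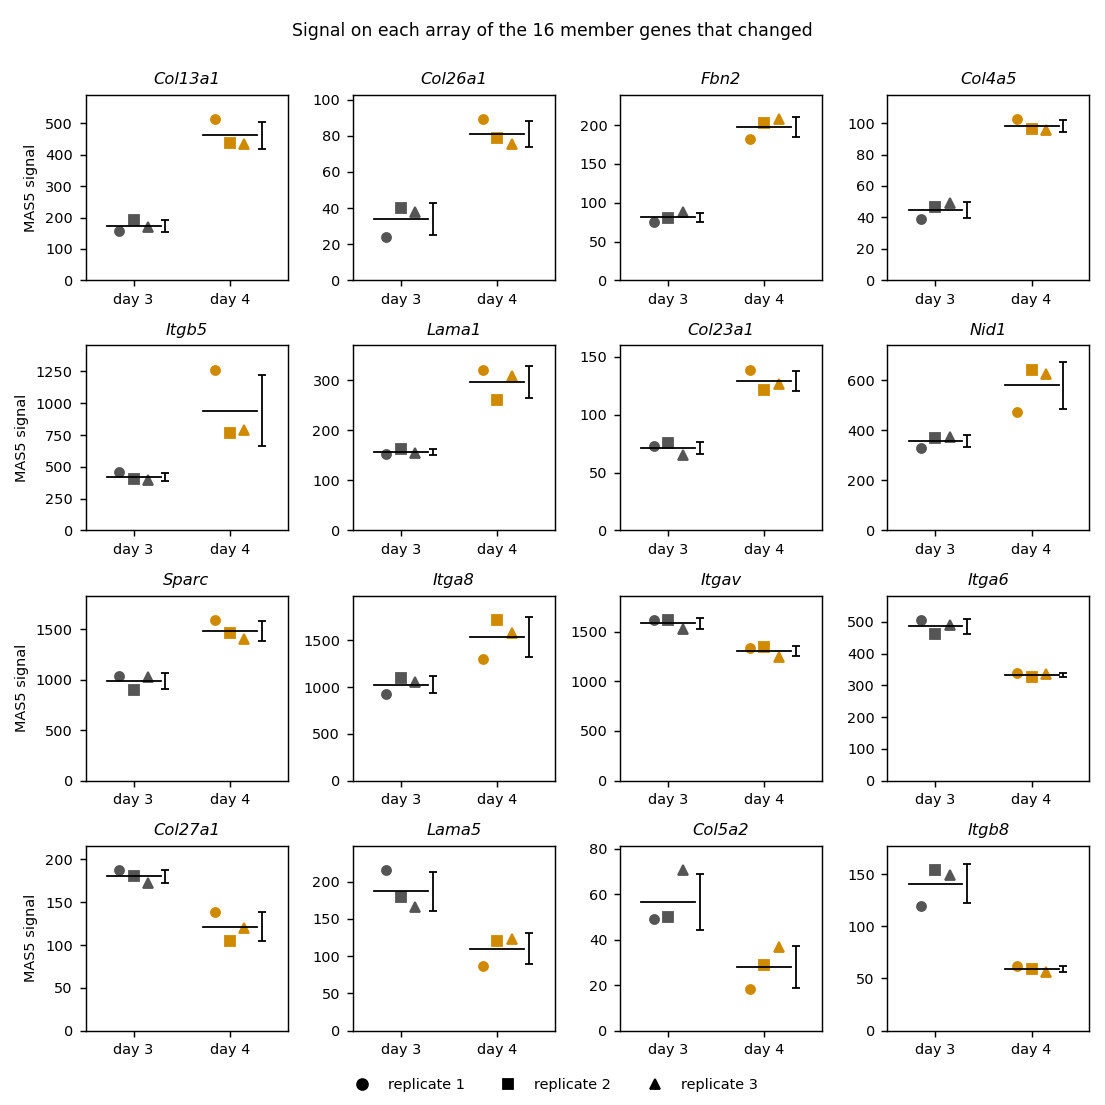
MAS5 signal on each array of the 16 genes that changed, with day 3 in grey and day 4 in orange, replicates 1, 2 and 3 as circles, squares and triangles, the mean of each day as a line and its SD as a bar (n = 3). The panels run from the largest rise, Col13a1, to the largest fall, Itgb8. In every panel the days are apart. Day 4 replicate 1 lies well above the other day 4 arrays for Itgb5. It lies below them for genes such as Nid1, Itga8, Lama5 and Col5a2.

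Of 6 laminin genes tested 1 rose and 1 fell, and both encode alpha chains, the chains that carry the main cell-binding domains. Lama1, the alpha chain of early embryonic basement membranes, was at 152, 164 and 154 at day 3 and 322, 260 and 309 at day 4. The lowest day 4 array was well above the highest day 3 array (0.92 ± 0.12, adjusted p = 0.00076). Lama5, a widely expressed alpha chain, went the other way, from 216, 179 and 165 at day 3 to 86.3, 121 and 123 at day 4. The days were apart here too (-0.77 ± 0.17, adjusted p = 0.0107). The second probe set of Lama5 read 134, 122 and 136 and then 42.3, 91.7 and 90.7, also without overlap (-0.89 ± 0.28, adjusted p = 0.0554). On both probe sets the lowest value was that of day 4 replicate 1.

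The partner chains of these alpha chains did not pass. Lamb1, the beta chain common to many laminins, was bright at 3051, 2782 and 2979 at day 3 and 3575, 3075 and 2848 at day 4 (0.10 ± 0.09, adjusted p = 0.435). Its dimmer probe sets differed in sign, at 0.30 ± 0.11, -0.59 ± 0.20 and -0.16 ± 0.23 (limma adjusted p = 0.0933, 0.0719 and 0.663). Their days were apart in all but the last. Lamb2, the alternative beta chain, was at 41.9, 35.5 and 31.1 and then 100, 46.5 and 58.8. Its days did not overlap, day 4 replicate 1 was far above the rest, and the change missed the threshold (0.86 ± 0.28, adjusted p = 0.0557). Without day 4 replicate 2 it passed, at 1.10 (adjusted p = 0.0277). Lamc1, the common gamma chain, showed 136, 120 and 111 at day 3 and 376, 80.3 and 93.9 at day 4. A single array, day 4 replicate 1, set the sign of its change: 0.22 ± 0.48 with it (adjusted p = 0.782) and -0.49 without it (adjusted p = 0.0316). The other probe set of Lamc1 had no such array, with 83.2, 76.8 and 80.9 and then 94.3, 99.6 and 95.5, and the days did not overlap (0.26 ± 0.13, adjusted p = 0.196). The direction for Lamc1 without that array was therefore opposite between its probe sets.

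Among the proteins that link laminins to the type IV network, Nid1 rose. Nidogen 1 bridges laminin and type IV collagen, and its gene gave 331, 369 and 372 at day 3 and 472, 644 and 626 at day 4. The change was 0.69 ± 0.13 (adjusted p = 0.0054), with the days apart and replicate 1 the lowest array of each. Its second probe set was dimmer, at 11.4, 44.8 and 46.9 at day 4 against 17.2, 28.8 and 22.6 at day 3 (0.36 ± 0.52, adjusted p = 0.674). The related Nid2 lay at 454, 448 and 497 and then 607, 400 and 455, so that day 4 fell on both sides of day 3 (0.04 ± 0.15, adjusted p = 0.862). Hspg2, which codes for the heparan sulfate proteoglycan perlecan, overlapped as well, at 219, 251 and 195 and then 180, 219 and 199 (-0.15 ± 0.13, adjusted p = 0.458).

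Fbn2 and Sparc also rose, which with Nid1 makes 3 of the 6 other matrix genes higher, while the remaining 3 did not pass. Fibrillin 2 builds the microfibrils of embryonic tissue. Fbn2 had signals of 75.7, 79.9 and 87.9 at day 3 and 183, 203 and 207 at day 4. Both of its probe sets changed by nearly the same amount, by 1.29 ± 0.13 on the brightest (adjusted p = 0.000176) and by 1.27 ± 0.17 on the other (adjusted p = 0.00148). On the other probe set the values were 76.8, 66.1 and 90.8 and then 220, 180 and 164, again with every day 4 array above every day 3 array. Sparc, a collagen-binding glycoprotein abundant in basement membranes, was at 1038, 900 and 1029 at day 3 and 1597, 1461 and 1400 at day 4 (0.59 ± 0.09, adjusted p = 0.00175). Its next probe set had 664, 720 and 576 at day 3 and 202, 837 and 808 at day 4, so that replicate 1 lay far below day 3 and the other 2 arrays above it (-0.34 ± 0.46, adjusted p = 0.655). The dimmest set of Sparc had the same low array, at 3.68 against 34.1 and 22.1 on the other day 4 arrays (-0.83 ± 0.73, adjusted p = 0.472).

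Fibronectin, the main adhesive protein of the early mesoderm matrix, changed little. Fn1 gave 6973, 6750 and 6625 at day 3 and 7222, 7291 and 7325 at day 4. Every day 4 array was above every day 3 array, but by a small margin (0.10 ± 0.05), and the test was not passed (adjusted p = 0.151). With arrays weighted by their agreement it was (adjusted p = 0.0329).

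Of the 15 integrin genes tested 2 rose and 3 fell, with a median change of -0.16, and the changed genes included both alpha and beta chains. Of 3 beta chains tested 1 rose and 1 fell. Itgb5, which pairs with the alpha-v chain to bind vitronectin, stood at 457, 407 and 394 at day 3 and 1265, 767 and 792 at day 4. Day 4 replicate 1 was the highest by far, yet the other day 4 arrays were also well above all of day 3. The change was 1.13 ± 0.18 (adjusted p = 0.00208), and its 3 other probe sets rose by 0.92, 0.96 and 0.95 (adjusted p from 0.000572 to 0.00272). Itgb8, another partner of the alpha-v chain and a receptor for latent TGF-beta, fell. It was at 119, 154 and 149 at day 3 and at 61.6, 58.8 and 55.7 at day 4, with a tight group of day 4 arrays far below day 3 (-1.25 ± 0.15, adjusted p = 0.000493). Itgb1, the beta chain shared by most laminin, collagen and fibronectin receptors, had 349, 318 and 321 and then 229, 265 and 299. All day 4 arrays were lower, but the change of -0.32 ± 0.12 did not pass (adjusted p = 0.0841). A further probe set of Itgb1 gave 338, 326 and 290 and then 156, 256 and 254 (-0.55 ± 0.19, adjusted p = 0.0775). The dimmest of the 3 tested, an x_at probe set, whose probes can match other transcripts, differed by 0.35 ± 0.58 (adjusted p = 0.726).

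Of 12 integrin alpha chains 1 rose and 2 fell. Itga8, a partner of the beta-1 chain that binds nephronectin, rose from 921, 1100 and 1050 at day 3 to 1306, 1722 and 1581 at day 4. Replicate 1 was the lowest array of each day, and the days did not overlap (0.58 ± 0.11, adjusted p = 0.00639). A second, much dimmer probe set of Itga8 stayed between 33.7 and 44.6 on all arrays (-0.17 ± 0.19, adjusted p = 0.579). Itga6, the alpha chain of a main laminin receptor, fell from 507, 461 and 489 to 340, 327 and 334. The day 4 arrays lay within a narrow range below all of day 3 (-0.54 ± 0.09, adjusted p = 0.00312), and its second probe set fell by a like amount (-0.55 ± 0.13, adjusted p = 0.022). Itgav, the alpha-v chain itself, was at 1623, 1618 and 1524 at day 3 and 1336, 1343 and 1251 at day 4. Its fall was the smallest of the 16 changes (-0.28 ± 0.07, adjusted p = 0.0217). Its second tested probe set differed by -0.48 ± 0.37 (adjusted p = 0.412). With the mean over all its probe sets, those under the level included, the sign turned (0.062, adjusted p = 0.896). A probe set of Itgav under the level read 10.8, 7.01 and 5.39 and then 26.1, 17.6 and 24.0, higher at day 4 without overlap. The call of the fall of Itgav, made on its brightest probe set, was lost in 5 of the 6 fits that leave out an array. Adjusted p in those 5 ran from 0.0553 to 0.0865 (limma), and the fit without day 4 replicate 1 kept the call.

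Other alpha chains did not pass, among them Itga5, Itga4, Itga9 and Itga3. Itga5, of the classical fibronectin receptor, was at 38.9, 67.8 and 55.5 and then 59.8, 83.1 and 69.7, with overlapping days (0.41 ± 0.23, adjusted p = 0.225). Its other tested probe sets differed in sign, at 0.74 ± 0.35 and -0.27 ± 0.43 (limma adjusted p = 0.181 and 0.712). A further Itga5 probe set, under the level, read 22.0, 15.6 and 17.9 and then 7.83, 9.79 and 8.19, lower at day 4 without overlap. Itga4, which binds fibronectin and VCAM1, had 34.3, 26.3 and 18.5 and then 2.93, 18.1 and 19.9, the lowest value again being that of day 4 replicate 1. Day 4, whose geometric mean lay under the level, was at least 1.51-fold lower, without passing (adjusted p = 0.195). Itga9, a receptor for tenascin and other ligands, gave 50.1, 69.6 and 60.5 and then 60.6, 89.9 and 85.6. Its change was 0.38 ± 0.20 (adjusted p = 0.207) and without day 4 replicate 1 it was 0.56 (adjusted p = 0.0423). Itga3, of a laminin receptor, lay between 72.0 and 103 on all arrays (-0.16 ± 0.19, adjusted p = 0.584).

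Probe sets that read the same gene gave a second look at these changes, although they share the RNA and are no replicates. Of the 89 probe sets bright enough, 16 rose and 7 fell, against a background of 18.2% changed among 22276 probe sets (9.67% higher and 8.53% lower). There were 25 genes with more than 1 such probe set, and in 14 of them all had the same sign. Of the 16 changed genes 11 had several, and in 4 of these, Fbn2, Itgb5, Col23a1 and Itga6, every probe set was called. In 3 of the 11, Col4a5, Sparc and Itga8, another probe set had the opposite sign without passing. Probe sets called in opposite directions were found in 0 of the 25. When each gene was taken as the mean over all its probe sets, those under the level included, 9 of the 16 calls were lost. These were Sparc, whose sign turned (-0.19, adjusted p = 0.777), Itgav, Col4a5 (0.54, adjusted p = 0.139), Nid1 (0.41, adjusted p = 0.351), Itga8 (0.20, adjusted p = 0.212), Lama5 (-0.60, adjusted p = 0.284), Col27a1 (-0.34, adjusted p = 0.127), Col5a2 (-1.27, adjusted p = 0.0809) and Col26a1 (1.17, adjusted p = 0.0719). In the remaining 5 changed genes, Col13a1, Lama1, Itgb8, Col26a1 and Col5a2, 1 probe set was above the level. Col26a1 and Col5a2 each had 1 more under it, which entered the mean.

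**Figure D3:**
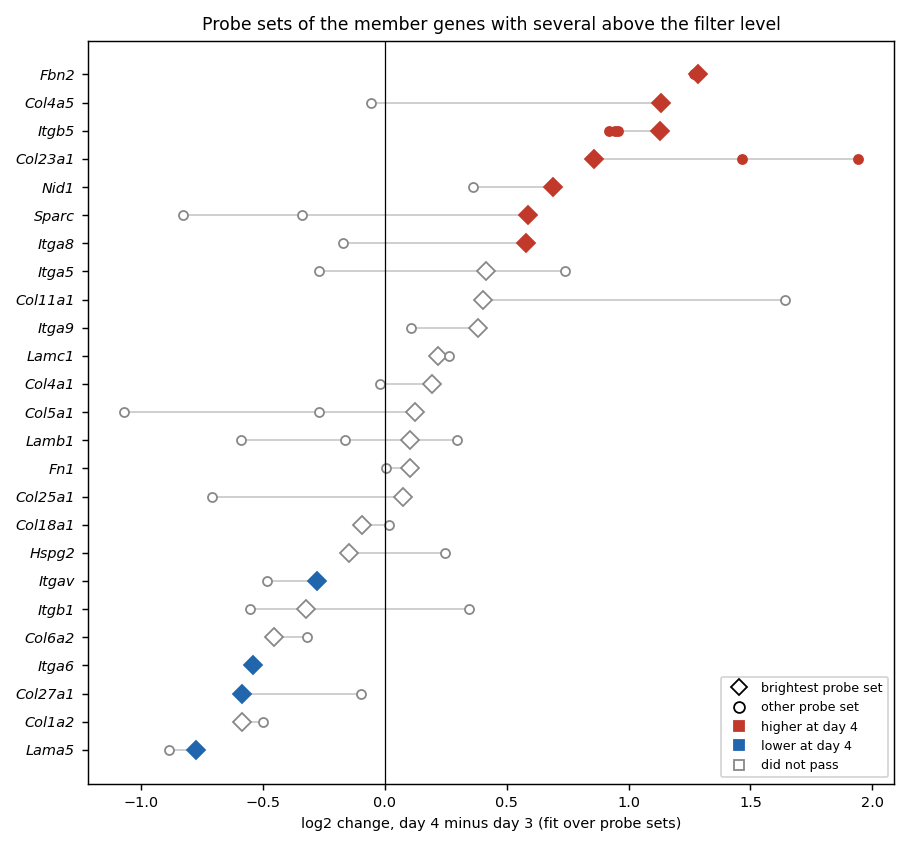
Log2 change of every probe set above the level for the 25 genes with several, with the brightest as a diamond and the others as circles. Filled symbols passed an adjusted p of 0.05 in the fit over probe sets. The 4 probe sets of Itgb5 and both of Fbn2 and of Itga6 lie together, while those of Sparc, Col5a1 and Col4a5 lie on both sides of 0. The right-hand circle of Col11a1 is a fitted value with day 3 under the level.

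The 29 genes below the level were 14 collagens, 4 laminins and 11 integrins. Their geometric mean signals over the 6 arrays ran from 0.888 to 13.4, and 15 of them had no array above the level. With no filter on brightness 0 of the 29 passed (limma, lowest adjusted p 0.0802) and 2 had an unadjusted p under 0.05, where 13.2% of all 18193 genes passed. Itgb3, a further partner of the alpha-v chain, was among them, between 1.53 and 4.02 on all arrays. In 3 of the 29 the days did not overlap, and these are named after their values were seen. Col15a1, a collagen of basement membrane zones, was at 4.50, 3.21 and 3.24 and then 17.0, 7.75 and 11.5. Col19a1 was at 15.8, 1.86 and 12.5 and then 36.0, 20.9 and 20.7. Itgb2l, an Itgb2-like gene, was at 14.7, 17.3 and 24.1 and then 2.10, 14.1 and 9.52. These levels are close to where MAS5 values scatter most, and no fold is drawn from them.

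Promoter windows were at hand for 60 of the 84 genes, as 66 windows, and were searched on both strands for 4 short motifs. The GC box GGGCGG, which Sp1 binds, was in 37 of them (56.1%), against 35.7% of all 32851 RefSeq windows of that length. The TATA box TATAAA was in 5 (7.58%, against 13.6%). The TCF/LEF core CTTTGAT, which mediates Wnt signalling, was in 1 (1.52%, against 3.73%), and the T-box site AGGTGTGA in 0 of 66 (against 1.28%). Of the genes that rose, 4 of 7 windows held a GC box, and of those that fell, 3 of 4. A match is only a match of letters, and its absence concerns only this window.
The windows of the largest rise and of the integrin beta chains that went opposite ways are given below, with GC boxes and TATAAA in capitals, from the same RefSeq table.
Col13a1, chr10:61979059-61979358, minus strand: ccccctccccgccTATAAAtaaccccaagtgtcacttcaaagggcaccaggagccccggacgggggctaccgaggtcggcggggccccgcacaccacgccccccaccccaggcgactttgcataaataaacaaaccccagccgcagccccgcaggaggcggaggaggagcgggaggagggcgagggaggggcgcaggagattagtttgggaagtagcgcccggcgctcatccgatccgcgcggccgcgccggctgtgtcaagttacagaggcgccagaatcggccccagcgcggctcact
Itgb5, chr16:33829415-33829714, plus strand: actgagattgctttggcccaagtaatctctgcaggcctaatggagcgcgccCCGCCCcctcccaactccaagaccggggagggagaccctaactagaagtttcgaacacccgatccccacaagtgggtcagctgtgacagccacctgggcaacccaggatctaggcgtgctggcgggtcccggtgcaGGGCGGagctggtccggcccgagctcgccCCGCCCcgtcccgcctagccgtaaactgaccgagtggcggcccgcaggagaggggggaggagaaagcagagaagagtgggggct
Itgb8, chr12:119238227-119238526, minus strand: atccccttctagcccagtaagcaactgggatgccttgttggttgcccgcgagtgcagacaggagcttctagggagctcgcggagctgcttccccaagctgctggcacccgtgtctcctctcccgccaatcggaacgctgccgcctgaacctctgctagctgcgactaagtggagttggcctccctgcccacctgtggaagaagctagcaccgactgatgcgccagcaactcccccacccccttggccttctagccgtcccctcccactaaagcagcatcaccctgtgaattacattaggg
Col13a1 was the only changed gene whose window held TATAAA. The Itgb5 window held 3 GC boxes, whereas that of Itgb8 held neither motif.

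Genes that process, extend or read this matrix changed in both directions as well, at rates to be set against the 11.5% higher and 10.7% lower among all genes. In collagen processing, 2 of 19 genes rose and 3 fell. Pcolce2, an enhancer of procollagen cleavage, fell from 1097 ± 27.9 to 504 ± 43.1 (-1.12 ± 0.09, adjusted p = 6.21e-05). Loxl4, which crosslinks collagen, fell by 0.72 ± 0.17 on the log2 scale (adjusted p = 0.0159), and P4hb, a subunit of prolyl hydroxylase, by 0.36 ± 0.09 (adjusted p = 0.0191). Among the partners of elastic fibres and microfibrils, 2 of 13 rose and 2 fell. Efemp1, a fibulin, fell from 718 ± 21.9 to 307 ± 12.4 (-1.22 ± 0.09, adjusted p = 3.62e-05), whereas the fibulins Fbln1 and Fbln2 rose by 0.53 ± 0.10 and 0.65 ± 0.16 (adjusted p = 0.00486 and 0.0171). Of 11 matricellular genes 2 rose and 1 fell. Matn2, a matrilin that links matrix filaments, rose from 23.4 ± 4.85 to 90.9 ± 28.8 (1.92 ± 0.28, adjusted p = 0.00148). Thbs3 rose by 0.46 ± 0.15 (adjusted p = 0.0498). Thbs2, a thrombospondin, was at least 1.83-fold lower at day 4, where its mean lay under the level of 13.5 (adjusted p = 0.0322).

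Of 19 proteoglycans and non-integrin receptors 4 rose and 1 fell. The heparan sulfate proteoglycan agrin (Agrn) rose from 919 ± 15.1 to 1471 ± 249 (0.67 ± 0.11, adjusted p = 0.00315). Of 5 glypicans tested, which are held to the membrane by a lipid anchor, 2 rose, 1 fell and 2 (Gpc1 and Gpc2) did not pass. Gpc6 rose by 0.67 ± 0.11 (adjusted p = 0.0027) and Gpc3 by 0.59 ± 0.12 (adjusted p = 0.00754), while Gpc4 fell from 301 ± 51.5 to 132 ± 18.8 (-1.19 ± 0.16, adjusted p = 0.000861). Of 19 focal adhesion genes, which connect integrins to actin, 2 rose and 4 fell. Vinculin (Vcl) fell from 4736 ± 63.6 to 2442 ± 128 (-0.96 ± 0.06, adjusted p = 1.88e-05) and zyxin (Zyx) from 695 ± 26.5 to 374 ± 44.2 (-0.90 ± 0.11, adjusted p = 0.000469). Actn1, an alpha-actinin, fell by 0.30 ± 0.07 (adjusted p = 0.0132). Of 21 matrix proteases and inhibitors 4 rose and 4 fell. Mmp2, a gelatinase that cuts type IV collagen, rose from 334 ± 21.3 to 816 ± 75.8 (1.29 ± 0.10, adjusted p = 5.89e-05). Plat, a plasminogen activator, rose from 43.8 ± 3.16 to 125 ± 21.7 (adjusted p = 0.000403), whereas Plaur, the urokinase receptor, fell from 118 ± 14.4 to 56.5 ± 2.40 (-1.06 ± 0.15, adjusted p = 0.00111). The list counts moved with single arrays. Without day 4 replicate 1, 8 collagen processing genes and 9 focal adhesion genes passed. Without any other array collagen processing had 1 to 3, and without day 3 replicate 1, day 3 replicate 3 or day 4 replicate 2 the focal adhesion list had 3 and the proteases 5. The proteases had 5 without day 4 replicate 3 as well. The elastic fibre list had 2 without day 3 replicate 2 or 3, and the matricellular list 1 without any day 3 array or day 4 replicate 3.

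**Figure D4:**
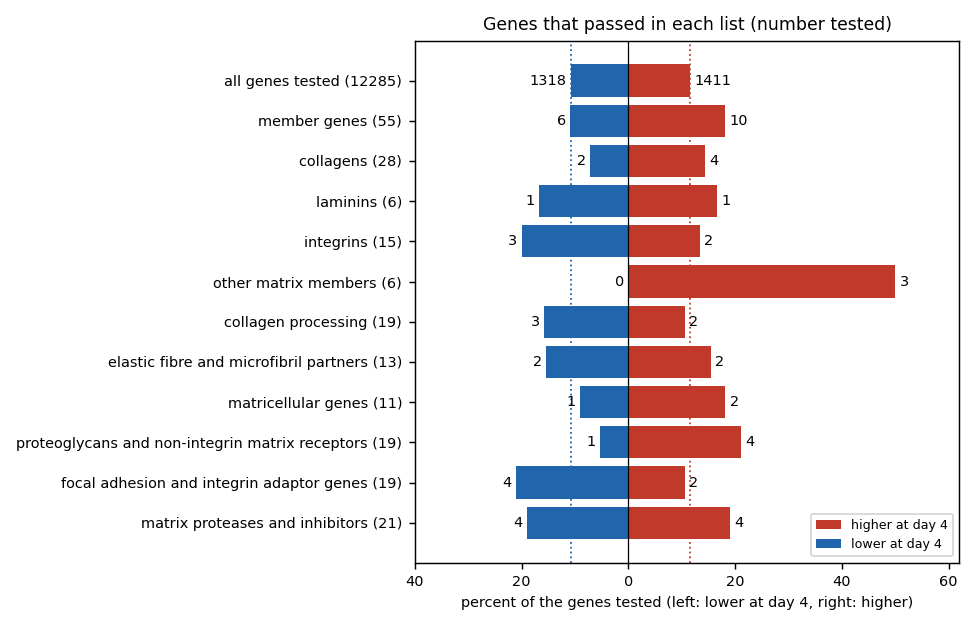
Percent of the genes tested in each list that were higher at day 4 (right, red) or lower (left, blue), with the counts at the bar ends and the number tested in brackets. Dotted lines mark the shares of all genes tested, 11.5% higher and 10.7% lower. The other matrix genes, with 3 of 6 higher, have the longest bar, over 6 genes.

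Markers of cell types that could carry such matrix genes also differed between the days, and their part in the changes above was not tested. The summed signal of 10 presomitic and paraxial mesoderm markers was 3114 to 3377 on the day 3 arrays and 5058 to 5277 at day 4. Rspo3 made most of the difference (1275 and 2695 on average), and without it the sum was 1866 to 2068 and then 2256 to 2661. Rspo3, Mesp2, Meox1 and Pax3 were higher, 5 others (Tbx6, Dll1, Dll3, Hes7 and Tcf15) did not pass, and 1 was lower. The lower one was Msgn1, the gene of the sorting reporter, at 83.0, 57.2 and 83.4 and then 25.2, 36.2 and 38.3 (-1.17 ± 0.24, adjusted p = 0.00723). The sum of 8 pluripotency and epiblast markers was 8839 to 9191 and then 6030 to 6257, with 6 lower. The 12 markers of primitive and parietal endoderm, a source of Col4a1, Lama1 and Sparc in the embryo, summed to 1649 to 1782 and then 1819 to 1911. Pdgfra, which paraxial mesoderm also expresses, made most of that sum (946 and 1286), and without it the sum was 777 to 793 and then 586 to 603. Pdgfra and Gata4 were higher, Sox17 (72.2 to 20.2), Gata6 (394 to 202) and Foxa2 (51.5 to 25.5) were lower, and Sox7, Cubn, Afp and Ttr were under the level. Of 8 endothelial markers 6 were under the level, Pecam1, Tek and Tie1 included. The sum was 262 to 313 at day 3 and 494 to 657 at day 4, with 1 gene (Kdr) higher. Kdr made the rise of that sum (216.4 and 496.3 on average). Without Kdr the days overlapped, at 58.19 to 74.39 and then 45.82 to 60.97. Of 9 fibroblast markers Postn, Lum, Prrx1, Fap and Ddr2 were under the level, and the sum was 421 to 433 at day 3 and 288 to 353 at day 4, with 1 (Pdgfrb) lower. Without Pdgfrb the days overlapped, at 121 to 167 and then 109 to 128. The 8 smooth and cardiac muscle markers summed to 3956 to 4793 and then 1701 to 2699, with 1 higher, 2 lower and Myh11 under the level. Tagln made most of that difference (2626 and 932 on average), and without it the sum was 1489 to 1824 and then 1314 to 1443. The 6 neural markers summed to 169 to 188 and then 93.5 to 123, with 1 lower and Sox1, Tubb3 and Neurog2 under the level.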

How the data were processed

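Gene expression was measured in 6 sorted mouse ES cell samples, 3 per day, on Affymetrix arrays after double amplification into biotin-labelled cRNA, per the labels' protocols. The authors deposited 1 linear intensity per probe set and array, made with MAS5 per the submitters' processing notes. Its version and scaling: not given in the sources used here. Extraction was by Trizol or a column kit, and the labels do not say which sample had which. Probe sets were named from the platform annotation: 34958 had 1 symbol, 932 several and 9211 were unlisted, and 34754 matched a RefSeq gene.

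Log2 of the deposited intensity was fitted in R 4.3.3 with limma 3.58.1 (lmFit, eBayes with trend, 2-sided, Benjamini-Hochberg over 12285 genes), each gene as its brightest probe set, above the 40th percentile. Probe sets were fitted likewise. A fold against a day whose geometric mean was under the level used the level as a bound. In simulated data with independent normal noise, 100 of 12285 genes were given a log2 change of 1 and 100 a change of 2. Of these 69% and 94% were recovered, and 4.12% of calls were false. In the real data a far larger share, 22.2%, was called, and no array was simulated as different, so these rates need not hold there. MAS5 scatters widely for dim probe sets, and double amplification weighs signal toward 3′ ends.

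Members, lists and the rule for named genes were chosen with earlier results of these data known. Named were a set list of common members, every changed member and up to 3 changed genes with the smallest p per list. Outside that rule, Col4a6, Col15a1, Col19a1, Itgb2l and the glypicans Gpc1, Gpc2 and Gpc3 were named as well. Alternatives were other filters, normalizations, probe set summaries, array weights, a replicate block and leaving out each array. Those with Itgb3bp counted, with the other probe sets, and with the marker lists without day 4 replicate 1 or without their most different gene were chosen after seeing the data. The number of arrays limits the precision.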

Additional observations from a re-analysis of the deposited data

How the results depend on the processing

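Of the 16 changed genes, 7 (Col13a1, Col23a1, Fbn2, Itga6, Itgb5, Itgb8 and Lama1) passed under every alternative that tested them, of 16 alternatives per gene, and 9 were lost in at least 1, mostly with the mean over probe sets. The cause of these losses was not tested. Col13a1, Itgb8 and Lama1 have 1 probe set each, so for them the mean over probe sets repeats the signals of the main fit. Where a gene had probe sets under the level, this mean took them in as well. With that mean, 7 of the 46 members tested changed (2 collagens, 1 laminin, 3 integrins, 1 other matrix gene), and 1796 of 11154 genes in all. The main fit had 16 of 55 and 2729 of 12285. The share of members was thus slightly under that of all genes with the mean, where it was above it in the main fit. Changed genes numbered 3, 1, 1 and 2 in collagen processing, elastic fibre, matricellular and focal adhesion genes. The same mean gave values of opposite sign for Itgav (0.062), Sparc (-0.19), Col3a1 (0.14), Col5a1 (-0.40), Hspg2 (0.0495), Itga5 (-0.0529), Itga9 (-0.23) and Lamb1 (-0.0875). With array weights 4312 of all genes changed, as did 4 laminins, 10 collagen processing, 8 elastic fibre and 8 proteoglycan genes, and Col2a1 (-0.10), Col3a1 (0.0432), Lamc1 (-0.32) and Nid2 (-0.13) turned. Without x, s and a probe sets, collagen processing had 3 and elastic fibre genes 2 changed. Without the variance trend 5 proteases and inhibitors changed, and 1 matricellular gene did with the filter at the 60th percentile or none. At an adjusted p under 0.10, 8 proteoglycan genes changed.

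Leaving out 1 array gave 14 to 20 changed members, 18 to 31 member probe sets and 1582 to 3530 genes in all. In the lists it gave 1 to 8 collagen processing, 2 to 6 elastic fibre, 1 to 2 matricellular, 3 to 9 focal adhesion and 5 to 9 protease genes. Among members that did not pass, it moved the change of Col18a1 from -0.44 to 0.15, of Col2a1 from -0.37 to 0.41, of Lamc1 from -0.49 to 0.63 and of Nid2 from -0.13 to 0.17.

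Same-numbered samples did not deviate together (correlations 0.07, 0.01 and -0.0005), so the replicate numbers were not taken as pairs. With the replicate block 18 members changed (11 higher, 7 lower) and 2884 genes in all. Counting Itgb3bp as a member gave 17 changed, 11 of them higher. Centring on the median left the members at 10 higher and 6 lower and split all genes into 1233 higher and 1443 lower.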
